A study of Mus musculus with 8 samples.

Results

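The 10 genes described here are 9 interferon-inducible GTPases (Gbp2, Gbp3, Gbp4, Gbp5, Gbp7, Igtp, Irgm1, Irgm2 and Iigp1) and the transcription factor Irf1. They were taken by symbol from the 32285 features of the deposited count matrices, and all 10 were measured. They were followed in pancreatic T cells from the NOD strain, which becomes diabetic through autoimmune destruction of its insulin-producing cells. T cells were barcodes with at least 2 unique molecular identifiers (UMIs, each marking 1 captured transcript) over 6 genes of the T cell receptor complex. A T cell with a Cd4 UMI and none of Cd8a or Cd8b1 was counted as CD4, and the reverse as CD8.

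The labels describe all mice as female NOD with spontaneous disease, 3 to 4 months old, and the cells as sorted on CD45, CD3 and TCR-beta. There were 8 libraries. The active library came from mice with blood glucose above 600 mg/dl and the onset library from mice at 250 mg/dl, both harvested on day 1. The other 6 came from mice at 200 to 300 mg/dl, given as 3 to 5 months old in the treatment text, that received vehicle or PPCA daily, with 1 library of each on days 2, 3 and 4. PPCA is nutlin-3 at 50 mg/kg, an inhibitor of MDM2, with MK-1775 at 25 mg/kg, an inhibitor of WEE1. The vehicle was 30% ethanol, 5% Tween and 65% PEG. The labels state neither the number of mice behind a library nor how the named days match the number of treatment days. The unit of replication was the library, and p-values measure the spread between libraries, which may be technical in part.

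Interferon gamma is made by activated T cells and natural killer cells. It binds a receptor of IFNGR1 and IFNGR2 chains, and the receptor-bound kinases JAK1 and JAK2 pass the signal to genes that hold GAS elements, Irf1 among them. IRF1 binds ISRE elements, which genes induced by type I interferons also hold. The guanylate-binding proteins (Gbp genes) and the immunity-related GTPases (Igtp, Irgm1, Irgm2, Iigp1) act at membranes around intracellular microbes, and in NOD islets interferon gamma is known as a product of infiltrating T cells.

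Promoter stretches are printed to show the induction motifs that the windows held, except that of Gbp5. No link between motifs and the direction of change between days was tested. RefSeq windows of the GRCm38.p6 assembly, from 250 bases before to 50 after a transcription start, were present for 8 of the 10 members, with 10 windows in all. They were searched on both strands for TTCNNNGAA (GAS, which reads the same on both strands and was counted once) and for GAAA, any 2 bases and GAAA (ISRE, which reads TTTC, any 2 bases and TTTC on the other strand). Capitals mark the matches, each stretch is 5′ to 3′ on the strand of its gene, and in Gbp3 and Irgm1 the capitals join 2 overlapping ISRE matches.

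Igtp, chr11:58199491-58199551, + strand: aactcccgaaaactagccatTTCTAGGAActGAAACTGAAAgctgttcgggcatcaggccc
Irgm2, chr11:58214882-58214942, + strand: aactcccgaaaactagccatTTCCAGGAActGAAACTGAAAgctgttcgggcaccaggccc
Gbp7, chr3:142530210-142530312, + strand: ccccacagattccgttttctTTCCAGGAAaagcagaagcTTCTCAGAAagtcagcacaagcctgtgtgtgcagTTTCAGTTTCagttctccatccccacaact
Gbp3, chr3:142559979-142560034, + strand: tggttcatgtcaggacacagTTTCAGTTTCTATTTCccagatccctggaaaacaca
Gbp2, chr3:142620584-142620633, + strand: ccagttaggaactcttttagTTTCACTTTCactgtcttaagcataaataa
Irgm1, chr11:48871421-48871470, - strand: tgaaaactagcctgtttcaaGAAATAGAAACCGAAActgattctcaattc
Irf1, chr11:53769904-53769952, + strand: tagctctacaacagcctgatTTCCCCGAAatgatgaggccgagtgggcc

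An ISRE match was present in 7 of the 8 members with a window, a GAS match in 5 and both in 4 (Gbp5, Gbp7, Igtp and Irgm2). Among 32851 RefSeq windows of the same length, 3.44% held an ISRE match, 8.3% a GAS match and 0.454% both. Irf1 was the member with a GAS match and no ISRE match in its window. Gbp2, Gbp3 and Irgm1 held ISRE matches and no GAS match. The 61-base stretches of Igtp and Irgm2 differed at 2 positions. These matches describe letters in a window and were not tested as binding sites.

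In RefSeq order, chromosome 3 carries Gbp5, Gbp7, Gbp3, Gbp2b and Gbp2 in a row. Gbp4 lies on chromosome 5 among Gbp8, Gbp9, Gbp10 and Gbp6. Chromosome 11 carries Irgm1, then Tgtp1, Tgtp2, Ifi47 and Irf1, and further on Igtp and Irgm2, while Iigp1 is on chromosome 18. Related genes in such clusters can split or share reads where their transcripts are near-identical. Transcript sequences were not compared here, so the counts of the clustered members carry that uncertainty.

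The libraries held 7023 to 13129 barcodes, 6175 to 11537 T cells, 2590 to 4643 CD4 cells and 1667 to 4441 CD8 cells, with a median of 3789 to 6420 UMIs per T cell. Between 21.42% and 35.82% of T cells fell in neither gate. Pairs of libraries shared 14 to 41 barcodes. Although all mice are labelled female, Y-linked transcripts (4 genes) summed to 186 to 272 CPM (UMIs of a gene per 1000000 UMIs) in vehicle day 2, vehicle day 3, PPCA day 3 and PPCA day 4. In the other 4 libraries Xist stood at 415 to 614 CPM. Calls of members in the treatment and day comparisons that change with that split as a factor are given beside their values. That fit leaves few residual degrees of freedom, so its p-values rest largely on the variance shared across genes. Summed over T cells, the 5 B and plasma cell genes stood at 6.04 to 13.1 CPM, the 3 dendritic genes at 0.165 to 1.57 and the 2 natural killer genes at 0.542 to 3.13. The 5 myeloid genes stood at 120 to 150 CPM, the 12 pancreas genes at 10.1 to 129, and the 2 erythroid genes at 64.0 CPM in the active library against 0.131 to 5.92 elsewhere.

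Levels are CPM of the UMIs of the T, CD4 or CD8 cells of a library. Because a transcript is counted at its 3′ end, these levels do not scale with gene length. By median over the 8 libraries in T cells, Irf1 was highest at 146 CPM, followed by Gbp7 at 98.5, Gbp4 at 75.8 and Igtp at 67.4. Irgm1 at 43.6, Iigp1 at 40.9 and Gbp2 at 36.5 followed, and their ranges over libraries overlapped. Gbp5 at 15.0, Irgm2 at 13.9 and Gbp3 at 9.68 CPM were lowest, again with overlapping ranges. The plot of member levels by library and gate shows this order and the spread.

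**Figure D1:**
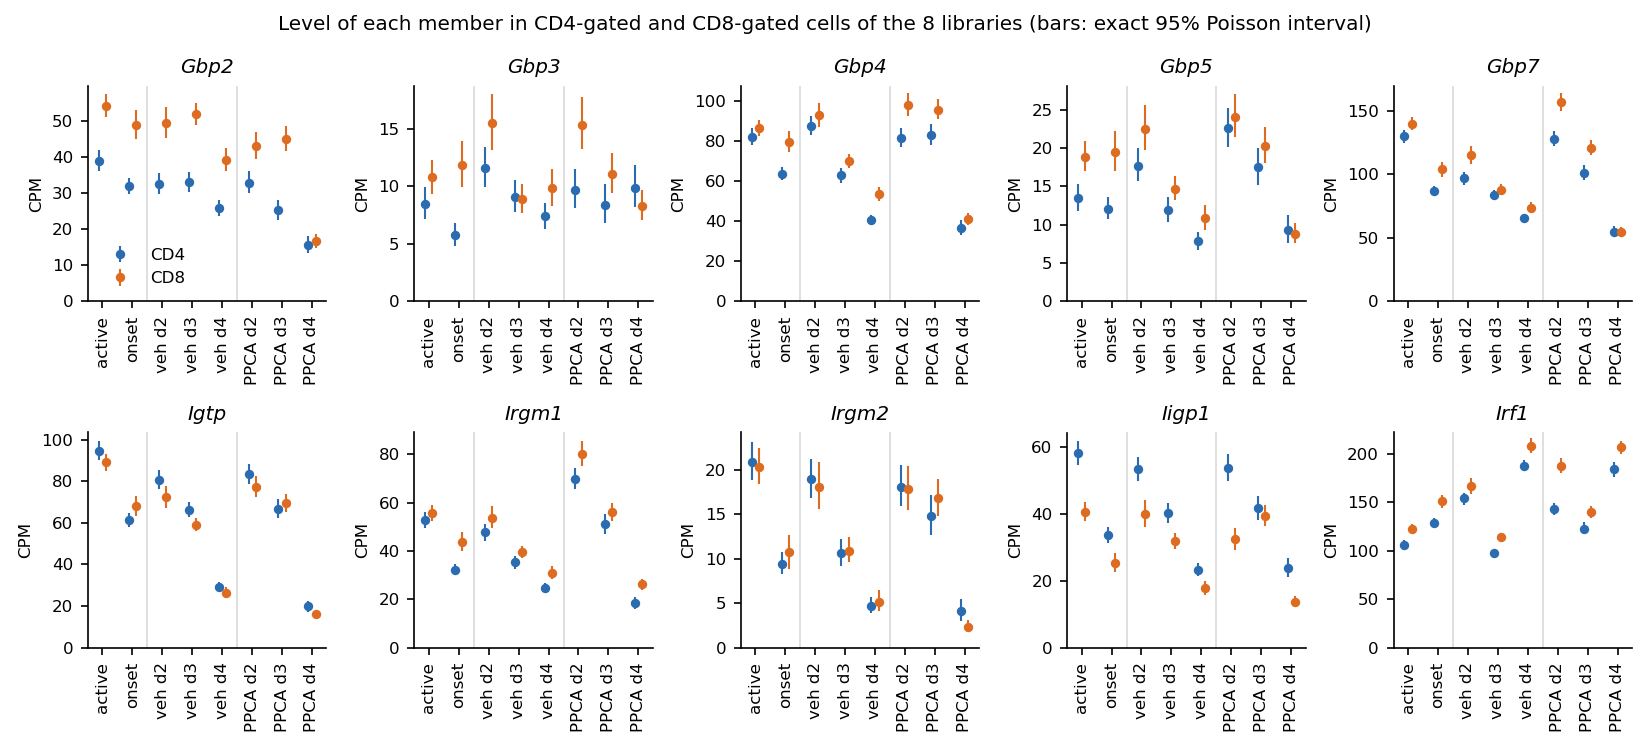
CPM of each of the 10 members (y axis, linear) in CD4 cells (blue) and CD8 cells (orange) of the 8 libraries (x axis, 1 point a library), with exact 95% Poisson intervals that cover counting error only. Igtp, Irgm2 and Iigp1 were lowest in both day 4 libraries in each gate, Irf1 was highest in these libraries in each gate, and Iigp1 was lower in CD8 than in CD4 cells in all 8 libraries.

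The stated aim was to see how daily treatment alters T cell subsets and expression, and the first comparison was therefore of PPCA with vehicle. No member passed the test, and for most the gap between arms changed sign from day to day. Irf1 stood at 157, 106 and 197 CPM in vehicle T cells on days 2, 3 and 4 and at 160, 134 and 198 CPM in PPCA T cells. Gbp4 stood at 90.6, 66.4 and 45.4 CPM in vehicle and 87.5, 89.0 and 38.2 CPM in PPCA. In both genes the arms lay closer together on days 2 and 4 and furthest apart on day 3. On day 3 the log2 ratio of PPCA over vehicle was 0.34 for Irf1 and 0.42 for Gbp4. The median gene of at least 10 CPM was at 0.19 on that day. Irf1 was among the members whose gap kept its sign, higher with PPCA on 3 days. Irgm1, which regulates other immunity-related GTPases, stood at 49.3, 37.9 and 26.6 CPM in vehicle and 74.9, 53.8 and 21.1 CPM in PPCA. PPCA was the higher arm for Irgm1 on days 2 and 3 and the lower on day 4.

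The quasi-likelihood test of edgeR with day as a block and Benjamini-Hochberg adjustment called 0 of 10 members in T cells, where 0% of 13135 genes were called. It also called 0 in CD4 cells (0% of 11565) and 0 in CD8 cells (0% of 11598). At an unadjusted p under 0.05 the members numbered 1, 2 and 1. DESeq2 and limma-voom called 0 in each of these cell groups. The median log2 fold change of the 10 members was -0.04 in T cells, -0.02 in CD4 cells and -0.05 in CD8 cells. On plain CPM no member had PPCA and vehicle libraries that did not overlap, against 2.72% of genes at 10 CPM or more in T cells, 3.26% in CD4 and 3.03% in CD8 cells. In simulated data the same test recovered 90.9% of genes changed 2-fold in T cells. Those data had a single dispersion for all genes and no differences between days, so that share need not hold here.

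Gbp2 came nearest to a difference. Its T cell levels were 39.6, 42.0 and 30.0 CPM in vehicle and 36.9, 35.5 and 16.2 CPM in PPCA, lower with PPCA on each of the 3 days, although on day 3 the median gene of at least 10 CPM was 0.19 higher with PPCA on the log2 scale. The largest gap was on day 4. The log2 fold change was -0.49 (SE 0.145, edgeR adjusted p = 0.539) in T cells, -0.44 (adjusted p = 0.721) in CD4 cells and -0.63 (SE 0.177, adjusted p = 0.504) in CD8 cells. Over 13 fits, the alternatives included, it ran from -0.66 to -0.28 in T cells. It ran from -0.65 to -0.29 in CD4 cells and from -0.80 to -0.33 in CD8 cells. With the Y-linked split as a further factor, edgeR called Gbp2 lower with PPCA in T cells (adjusted p = 0.018), CD4 cells (0.0106) and CD8 cells (6.06e-06), where 0.525%, 1.48% and 1.59% of genes were called lower. The few residual degrees of freedom of that fit limit what these p-values say about spread between libraries. With no low-count filter Gbp2 was called in CD8 cells (edgeR adjusted p = 0.00274). Without day 4, Irgm1 was called higher with PPCA in CD8 cells, at 0.41 (edgeR adjusted p = 0.0226), where 1.7% of genes were called higher.

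Of 10 further interferon-inducible GTPases, edgeR called 0 in T cells, with a median of 0.18 on the log2 scale, and of 13 genes of interferon gamma signalling 0, with a median of 0.13. Of the first list 1 and of the second 3 had an unadjusted p under 0.05. DESeq2 called 0 and 1 of them, and limma-voom 0 of either. Ifng itself stood at 14.4, 12.2 and 27.8 CPM in vehicle and 20.8, 10.1 and 114 CPM in PPCA (log2 fold change 0.72, SE 0.401, edgeR adjusted p = 0.692). Socs1, a feedback inhibitor of JAK signalling, had a log2 fold change of 0.45 (edgeR adjusted p = 0.47). A list of 20 type I interferon-stimulated genes (ISGs) had a median of 0.93, with all 20 higher with PPCA, 14 at an unadjusted p under 0.05 and 0 called by edgeR. DESeq2 called 7 of these ISGs higher with PPCA in T cells, and limma-voom 0. The 9 GTPases summed to 463, 371 and 241 CPM in vehicle and 521, 449 and 190 CPM in PPCA, whereas the ISG list summed to 665, 531 and 562 CPM and to 2050, 999 and 456 CPM. No difference between the lists was tested. The effect of PPCA did not differ between CD8 and CD4 cells for any member (0 called and 1 at an unadjusted p under 0.05, against 0.041% of genes called by edgeR).

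The larger differences were between days. In the fit over both arms, 7 of the 9 GTPases were called lower, and Irf1 higher, on day 4 than on day 2. Igtp, an immunity-related GTPase that controls other members of its family, stood at 77.0 CPM in vehicle and 81.7 in PPCA on day 2. It stood at 64.3 and 70.4 CPM on day 3, and at 28.4 and 17.6 CPM on day 4. Both day 4 libraries lay below all other libraries, active (91.2) and onset (63.0) included. Irgm2, a close relative of Igtp, stood at 18.9 and 19.6 CPM on day 2, 11.2 and 16.5 on day 3 and 5.03 and 3.42 on day 4, in vehicle and PPCA in that order. Its 2 day 4 values were again the lowest of the 8, against 20.7 CPM in active and 10.3 in onset. Iigp1, an effector of the family, fell from 49.7 and 45.3 CPM on day 2 to 22.0 and 19.5 on day 4, with 38.3 and 43.5 on day 3.

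Across the 10 members, edgeR (arm as a block, day libraries of both arms, Benjamini-Hochberg) called 7 GTPases lower on day 4 than on day 2. Of 13135 genes, 5.68% were called lower and 7.74% higher. Irgm2 fell by 1.90 on the log2 scale (SE 0.229, adjusted p = 0.00489) and Igtp by 1.52 (SE 0.191, adjusted p = 0.00551). Irgm1 fell by 1.06 (SE 0.208, adjusted p = 0.0202), Gbp5 by 0.94 (SE 0.131, adjusted p = 0.00724) and Iigp1 by 0.91 (SE 0.105, adjusted p = 0.00422). Gbp4 fell by 0.81 (adjusted p = 0.0157) and Gbp7 by 0.71 (adjusted p = 0.0377). Gbp7 was called in 13 of 17 fits, with log2 fold changes from -1.03 to -0.41. Gbp2 had a log2 fold change of -0.50 (edgeR adjusted p = 0.106) and Gbp3 one of -0.29 (0.276), neither called. Gbp2 was called lower with the Y-linked split as a factor (-0.51, edgeR adjusted p = 0.00508, with 11.6% of genes called lower) and with no low-count filter (0.0338). The median over the 10 members was -0.86, and over all genes -0.02.

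Irf1 rose by 0.60 (SE 0.111, edgeR adjusted p = 0.0171), from 157 and 160 CPM on day 2 to 197 and 198 on day 4. Its day 4 libraries were the highest of the 8 and its day 3 values, 106 and 134 CPM, were below those of day 2. Between day 3 and day 2 edgeR called 0 members and 0 had an unadjusted p under 0.05, with 0% of 13135 genes called. DESeq2 and limma-voom also called 0 members there. Day 4 against day 3 gave 7 GTPases lower (4.39% of genes were called lower) and Irf1 higher by 0.79 (SE 0.112, adjusted p = 0.00967; 6.04% of genes higher). Those 7 included Gbp2, at -0.73 (adjusted p = 0.045), and left out Gbp7, at -0.63 (adjusted p = 0.0607). Gbp7 was called with the Y-linked split as a factor (-0.82, edgeR adjusted p = 0.000287, with 8.88% of genes called lower), in DESeq2 (0.00996) and with no low-count filter (0.00843). The chart of fitted changes by arm and by day places the 2 sets of estimates side by side.

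**Figure D2:**
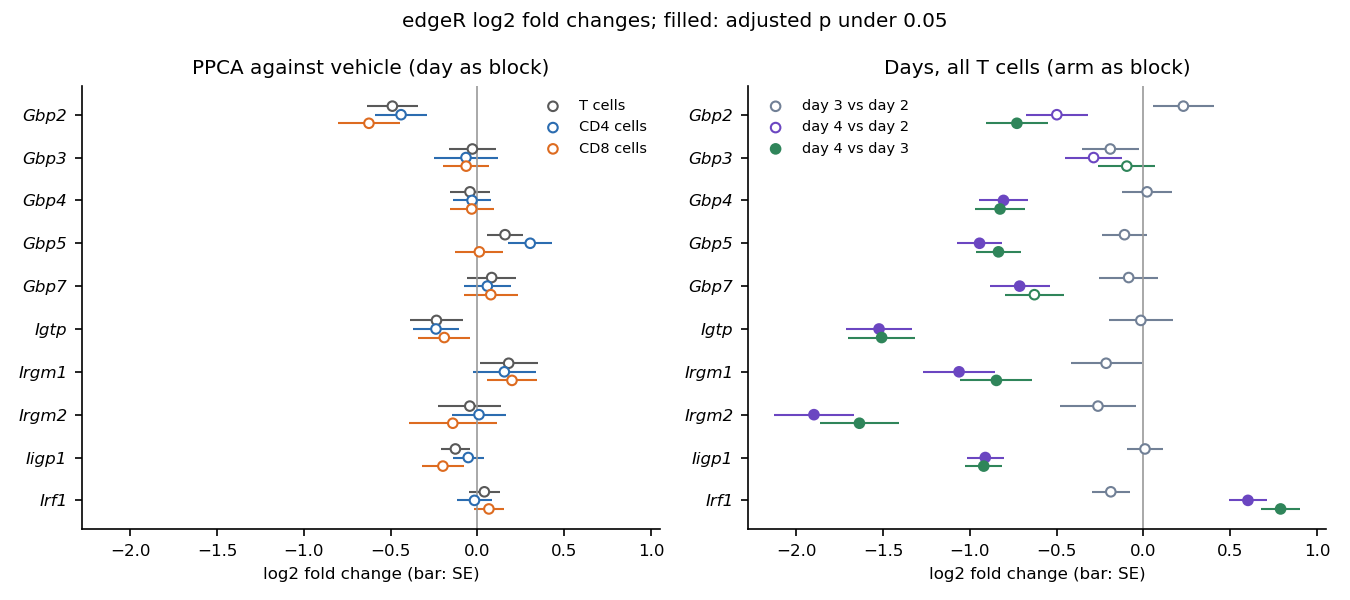
Log2 fold changes of the 10 members from edgeR with their SE, for PPCA against vehicle in T, CD4 and CD8 cells (left) and between days in all T cells (right), with filled points for an adjusted p under 0.05. All points on the left are open. On the right, day 4 against day 2 is filled for 7 GTPases below 0 and for Irf1 above 0, and day 3 against day 2 is open throughout.

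On plain CPM the median gene of at least 10 CPM was 0.28 lower on the log2 scale on day 4 than on day 2 (a log2 ratio of -0.28), and TMM scaling removes that shift. The plain log2 ratios of the 9 GTPases ran from -2.19 for Irgm2 to -0.57 for Gbp3, and Irf1 was at 0.32, so no direction changed with the scaling. In 9 of 10 members, all but Irf1, both day 4 libraries lay below both day 2 libraries, against 63.3% of genes. Both lay below both day 3 libraries for 8 members, all but Gbp3 and Irf1, against 32.4% of genes. Each day holds 2 libraries, so the harvest day, the animals and the handling of a day cannot be told apart. The share of T cells in neither gate was 24.89% and 32.5% on day 2 and 33.73% and 35.82% on day 4. The pancreas genes summed to 62.2 and 86.8 CPM on day 2, to 103 and 129 on day 3 and to 69.0 and 77.8 on day 4. Their part in the result was not tested. Whether arms differed in their change over days was not tested. A fit with a term for each day in each arm leaves no residual degrees of freedom.

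The counts depended on single libraries. With the remaining library of a day assumed to vary like the others, day 4 against day 2 called 6 members without vehicle day 2, 4 without PPCA day 2, 9 without vehicle day 4 and 7 without PPCA day 4. Over all genes the same fits called 6.87%, 2.3%, 17.5% and 5.99%, so the number of calls varied for all genes as well. Igtp, Irgm2, Gbp5 and Iigp1 were called in all 4 of these fits, whereas Irf1 was lost without either day 2 library (0.64, adjusted p = 0.0614, and 0.56, adjusted p = 0.134, in edgeR). Day 4 against day 3 called 4 members without vehicle day 3, 0 without PPCA day 3, 9 without vehicle day 4 and 6 without PPCA day 4, against 1.37%, 0.762%, 14% and 5.48% of all genes. Each of these fits leaves a single library for the day that lost a library. No member called lower or higher changed direction in these fits.

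The same pattern was present inside each gate. In CD4 cells alone edgeR called 6 GTPases lower and Irf1 higher on day 4 than on day 2, and in CD8 cells alone 7 GTPases lower and Irf1 higher. Of all genes, 3.55% were called lower and 5.91% higher in CD4 cells, and 5.6% and 7.17% in CD8 cells. Irgm2 in CD8 cells stood at 18.1 and 17.8 CPM on day 2 and at 5.18 and 2.37 on day 4 (-2.00, SE 0.326, adjusted p = 0.0104). Igtp in CD4 cells stood at 80.7 and 83.3 CPM on day 2 and at 29.2 and 19.8 on day 4 (-1.49, SE 0.162, edgeR adjusted p = 0.00341). Irf1 in CD8 cells stood at 167 and 188 CPM on day 2 and at 208 and 207 on day 4 (0.52, SE 0.108, edgeR adjusted p = 0.0231). Day 4 values lay below day 2 values for both GTPases and above them for Irf1.

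Genes upstream of the members moved in different directions on day 4. Ifng rose by 2.12 (SE 0.484, edgeR adjusted p = 0.0319), most in PPCA day 4, and Socs1 by 0.59 (SE 0.118, adjusted p = 0.0216). Irf9 fell by 0.85 (edgeR adjusted p = 0.044) and Stat2 by 0.74 (adjusted p = 0.0282). Ifngr2 had a log2 fold change of 0.72 (edgeR adjusted p = 0.0555) and Ifngr1 one of 0.36 (0.163). In the list of 13 signalling genes edgeR called 2 higher and 3 lower, with a median of 0.27, whereas DESeq2 called 5 higher and 3 lower and limma-voom 3 and 3. Without PPCA day 4 the Ifng value was 0.99 (edgeR adjusted p = 0.0706), and its call was also lost without vehicle day 2 (adjusted p = 0.073) or PPCA day 2 (0.19). Socs1 and Stat2 were not called without any one of these 3 libraries, and Irf9 not without PPCA day 2 or PPCA day 4. The plot of levels by day and arm shows Ifng beside Irf1 and the GTPases.

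**Figure D3:**
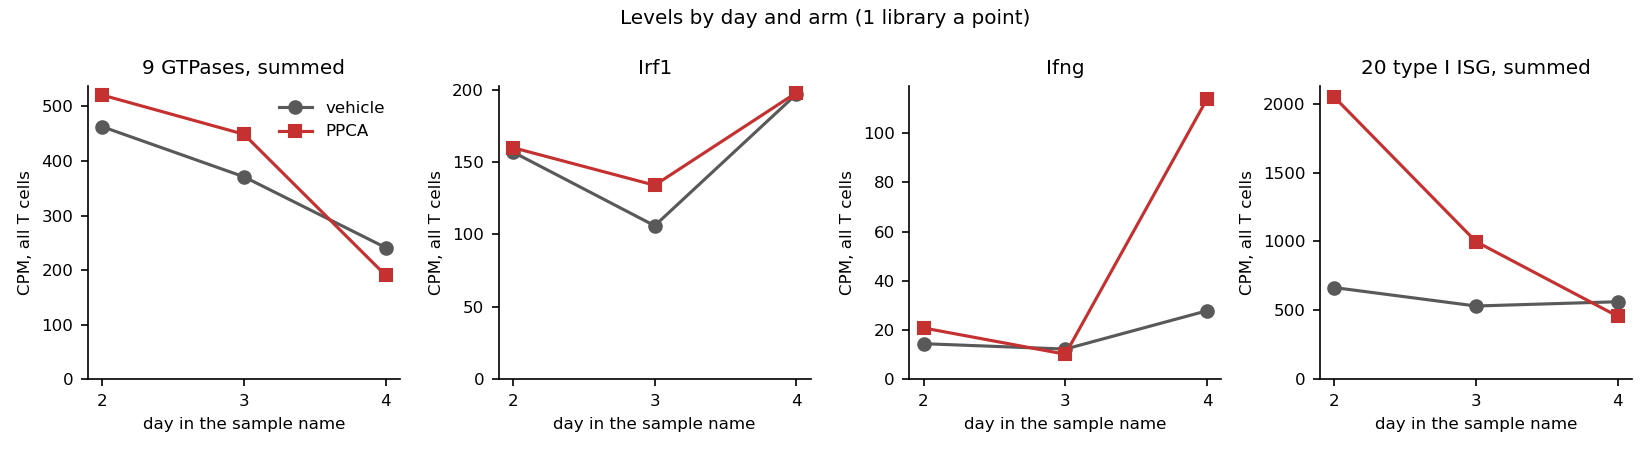
CPM in all T cells (y axes, linear, from 0) on days 2, 3 and 4 (x axes) in vehicle (grey) and PPCA (red), 1 library a point, for the 9 GTPases summed, Irf1, Ifng and 20 type I ISGs summed. The GTPases were lowest on day 4 in both arms, at 241 and 190 CPM, while Irf1 was highest, and Ifng reached 114 CPM in PPCA day 4.

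Among 10 further interferon-inducible GTPases, edgeR called 1 lower on day 4 than on day 2, DESeq2 6 and limma-voom 3, and the median was -0.76. The gene called by edgeR was Ifi47, at -0.98 (SE 0.221, edgeR adjusted p = 0.0309). Of 9 other interferon gamma targets, Cxcl10, a T cell attracting chemokine, rose by 2.47 (edgeR adjusted p = 0.0166). Tap1, a peptide transporter, fell by 0.55 (adjusted p = 0.0259), and Nlrc5, an inducer of class I antigen presentation genes, by 0.51 (adjusted p = 0.0201). The list's median was -0.29. In the type I ISG list edgeR called 10 of 20 genes lower and 0 higher, with a median of -1.49, DESeq2 11 lower and limma-voom 15. Its largest falls were in Ifit3b, by 2.85, and Ifit3, by 2.44. Without PPCA day 2, of Ifi47, Cxcl10, Tap1, Nlrc5, Ifit3b and Ifit3, edgeR called only Ifit3. Ifi47 and Nlrc5 were not called without PPCA day 4, Tap1 and Nlrc5 not without vehicle day 2, and Tap1 not without vehicle day 4.

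The summed ISGs fell mostly in the PPCA arm, from 2050 to 456 CPM, and stood at 665 and 562 CPM in vehicle on days 2 and 4, whereas the summed GTPases were lower on day 4 in both arms. The contrast was repeated in cells with under 2 type I ISG UMIs, counted after each cell was thinned to 2000 UMIs. In such CD4 cells edgeR called 7 members on day 4 against day 2, and in such CD8 cells 7, each time 6 GTPases lower and Irf1 higher. Of all genes, 3.48% were called lower and 6.34% higher in these CD4 cells, and 3.57% and 5.77% in these CD8 cells. Igtp was at -1.33 (SE 0.163, adjusted p = 0.000308) in the CD4 cells and at -1.60 (SE 0.174, edgeR adjusted p = 0.000313) in the CD8 cells. Irf1 was at 0.56 (adjusted p = 0.0148) and 0.50 (edgeR adjusted p = 0.0245). Irgm1 was at -0.64 in these CD4 cells (edgeR adjusted p = 0.0463), against -1.14 in all CD4 cells. Iigp1 was called in the CD4 cells (-0.78, edgeR adjusted p = 0.0316) and not in the CD8 cells (-0.67, 0.0894). Under this bound Igtp and Irf1 were called in the same directions as in all cells. Over the 8 libraries 17017 CD4 and 16006 CD8 cells fell under it when thinned, but 9840 and 9989 with full counts. Many of these cells thus held 2 or more ISG UMIs before thinning. Whether the difference holds without them was not tested.

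Per cell, the fall showed as fewer cells with a GTPase UMI. After thinning each cell to 2000 UMIs, which left out 50 to 437 shallower T cells a library, 50.6% of CD4 cells in vehicle day 2 and 53.6% in PPCA day 2 held at least 1 UMI of the 9 GTPases. On day 3 the shares were 43.7% and 47.8%, and on day 4 30.3% (exact 95% interval 28.9 to 31.6) and 28.8% (27.1 to 30.5). In CD8 cells they were 54.5% and 59.4%, then 46.7% and 51.8%, then 35.6% and 28.6%. The active and onset libraries stood at 51.8% and 43.1% in CD4 cells and 54.4% and 50.6% in CD8 cells. Day 4 had the lowest shares of the 8 libraries in both gates. Ins2, an islet transcript that T cells should lack, was found in at most 0.074% of thinned cells of any library and gate. The 12 pancreas genes together summed to 10.1 to 129 CPM in T cells and the 9 GTPases to 190 to 521 CPM, and the part of free RNA in these shares was not tested.

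Cells with 3 or more GTPase UMIs made up 9.89% and 11.3% of CD4 cells on day 2 and 3.63% and 2.19% on day 4. In CD8 cells they made up 11.3% and 12.7% on day 2 and 4.85% and 2.23% on day 4. Among cells with any GTPase UMI the mean was 1.86 and 1.92 UMIs in CD4 cells on day 2 and 1.57 and 1.41 on day 4. Both the share of cells and the UMIs in such cells were thus lower on day 4. An Irf1 UMI was present in 24.3% and 24.0% of CD4 cells on day 2, 15.9% and 19.4% on day 3 and 25.2% and 26.4% on day 4. In CD8 cells the shares were 28.4% and 30.0% on day 2, 19.4% and 23.6% on day 3 and 28.4% and 29.0% on day 4, so the share of CD8 cells with an Irf1 UMI was not higher on day 4 than on day 2. The intervals cover counting error only.

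The gate comparison, within libraries, asked whether CD4 and CD8 cells differ. Gbp2 was higher in CD8 cells in all 8 libraries. In CD4 cells it stood at 39.0 CPM in active, 31.9 in onset, 32.6, 33.0 and 25.8 in vehicle on days 2 to 4, and 32.9, 25.2 and 15.7 in PPCA. In CD8 cells it stood at 54.2, 48.9, 49.5, 51.8, 39.1, 43.1, 44.9 and 16.6 CPM in the same order. The gap was smallest in PPCA day 4, where both gates were low. Iigp1 went the other way, with 58.3, 33.8, 53.5, 40.3, 23.3, 53.9, 41.8 and 23.8 CPM in CD4 cells and 40.8, 25.4, 40.1, 32.0, 17.9, 32.5, 39.5 and 13.8 in CD8 cells. It was lower in CD8 cells in all 8 libraries.

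With the library as a block over 16 profiles, edgeR called 7 members higher and 1 lower in CD8 cells, against 22.9% and 22.5% of 11541 genes. Gbp2 was higher by 0.60 on the log2 scale (SE 0.055, adjusted p = 3.27e-07), Gbp3 by 0.42 (SE 0.101, adjusted p = 0.00331) and Gbp5 by 0.37 (SE 0.066, adjusted p = 0.000256). Irgm1 was higher by 0.28 (adjusted p = 5.55e-05), Irf1 by 0.25 (1.62e-06), Gbp4 by 0.25 (1.33e-05) and Gbp7 by 0.22 (1.92e-05). Iigp1 was at -0.40 (SE 0.061, edgeR adjusted p = 6.6e-05). Igtp, at -0.04 (SE 0.035), and Irgm2, at 0.05 (SE 0.069), were not called. These 8 calls held in all 16 fits run, the alternatives included. Gbp2, Gbp4, Gbp7, Irgm1 and Irf1 were higher in CD8 cells in 8 of 8 libraries, as were 11.9% of genes, and Iigp1 was lower in 8 of 8, as were 22.9%.

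**Figure D4:**
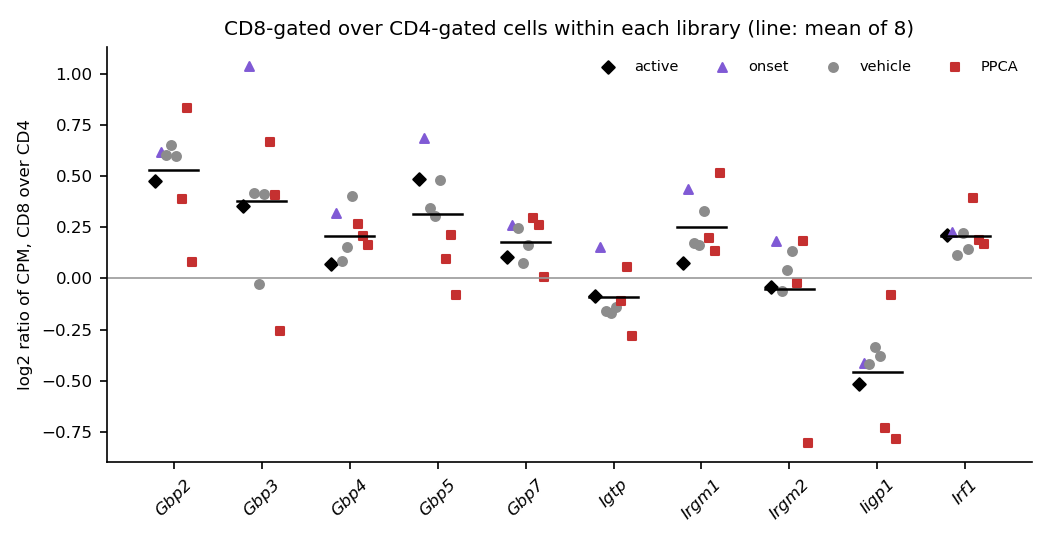
Log2 ratio of CPM in CD8 over CD4 cells (y axis) within each of the 8 libraries for each member (x axis), with the mean of the 8 as a line. Gbp2 lies above 0 in every library and Iigp1 below 0 in every library, whereas Igtp and Irgm2 lie on both sides.

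Upstream of the members, Ifng was higher in CD8 cells by 2.30 (SE 0.18, edgeR adjusted p = 5.09e-08), with 3.12 to 63.2 CPM in CD4 cells and 12.7 to 196 in CD8 cells. The receptor chains split: Ifngr1 was higher by 0.50 (SE 0.048, edgeR adjusted p = 4.27e-07) and Ifngr2, at -0.79 (SE 0.038, adjusted p = 1.79e-10), lower in CD8 cells, each in 8 of 8 libraries. Among 9 other GTPases 6 were higher and 1 lower, led by Gbp2b at -2.25 (edgeR adjusted p = 9.96e-07) and Tgtp2 at 0.64 (4.25e-07). Of 9 other interferon gamma targets 6 were higher, among them Nlrc5 at 0.69 and Psmb8, an immunoproteasome subunit, at 0.36, and Serpina3g was lower at -1.68. In the type I ISG list 8 of 19 were higher and 4 lower.

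The next comparison set cells with 2 or more UMIs over the type I ISG list, after thinning to 2000 UMIs, against the other cells of the same library. The class held 9635 CD4 and 6265 CD8 cells over the 8 libraries. All 9 GTPases were higher in it in both gates, and Irf1 was not called. In CD4 cells the library median of Gbp7 was 123 CPM inside the class and 80.6 outside, of Irgm1 57.1 and 31.9, and of Iigp1 64.3 and 35.1. Each of the 9 GTPases was higher inside the class in 8 of 8 libraries in CD4 cells. In CD8 cells 6 of them were, with Gbp2 and Irgm2 higher in 7 of 8 and Iigp1 in 6 of 8. Irf1 had medians of 149 and 138 CPM in CD4 cells and was higher in 6 of 8.

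For CD4 cells edgeR with the library as a block called 9 members higher, where 4.18% of genes were called higher, with log2 fold changes from 0.45 for Gbp4 (SE 0.062, adjusted p = 5.68e-07) to 0.93 for Gbp3 (SE 0.148, adjusted p = 9.8e-06). For CD8 cells it called 9 higher, where 5.85% of genes were, from 0.38 for Gbp4 (SE 0.069, adjusted p = 3.73e-05) to 0.85 for Irgm2 (SE 0.146, adjusted p = 1.38e-05). Irf1 was at 0.09 (SE 0.04, adjusted p = 0.209) in CD4 and 0.07 (SE 0.047, edgeR adjusted p = 0.461) in CD8 cells. In CD8 cells the call of Gbp3 was lost with 3 UMIs as the bound (0.57, edgeR adjusted p = 0.0951) and that of Iigp1 in DESeq2 (0.41, adjusted p = 0.609). The class is a range of a count: 3758 CD4 and 2648 CD8 cells stood at exactly 2 ISG UMIs, and 7056 and 5897 at exactly 1. The log2 fold changes did not differ between gates for any member (0 called, 0.311% of genes called by edgeR, and 0 members at an unadjusted p under 0.05). DESeq2 and limma-voom called 0 there too.

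Ifng, too, was higher in the ISG class, by 1.29 (SE 0.147, edgeR adjusted p = 6.61e-09) in CD4 and 1.18 (SE 0.078, adjusted p = 8.43e-18) in CD8 cells. So was Irf9, by 0.58 and 0.73, called in both gates. Of 6 other GTPases tested, 6 were higher in CD4 and 4 in CD8 cells, led by Gbp6 at 1.07 and 0.94. Whether the class holds other T cell subsets than the remaining cells was not tested.

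Cells with an Ifng UMI were compared last with cells without one, Ifng being the gene of the ligand. They made up 0.43% to 6.68% of thinned CD4 cells and 2.59% to 17.6% of thinned CD8 cells over the 8 libraries. A single UMI can also be free RNA, and Ifng was not analysed here in a cell type that lacks it, so a cell with an Ifng UMI is not shown to be a producing cell. There were 440 such CD4 cells and 1848 such CD8 cells after thinning, and 280 and 955 of them held exactly 1 UMI. In CD8 cells Iigp1 was almost absent from them. Its library median was 5.43 CPM (0 to 14.1), against 34.6 CPM (14.8 to 46.7) in CD8 cells without an Ifng UMI, and it was lower in 8 of 8 libraries. Only 20 Iigp1 UMIs lay in these cells, so the size of the fold is imprecise. Irf1 had a median of 147 CPM against 169, and Gbp2 42.0 against 48.8. They were higher in cells with an Ifng UMI in 3 of 8 (Irf1) and 2 of 8 libraries (Gbp2).

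In CD8 cells edgeR called these 3 members lower and 0 higher, with 16.3% of genes called lower and 31.7% in either direction, so 3 of 10 is near the share over all genes. Iigp1 was at -2.48 (SE 0.264, adjusted p = 1.71e-10), Irf1 at -0.60 (SE 0.102, adjusted p = 6.04e-06) and Gbp2 at -0.45 (SE 0.14, adjusted p = 0.0106). On plain CPM, as means over libraries, they were at -2.54, -0.21 and -0.26, and the median gene of at least 10 CPM was 0.26 higher in cells with an Ifng UMI, so the fitted values of Irf1 and Gbp2 are relative to that shift. The call of Gbp2 was lost with 2 Ifng UMIs as the bound (-0.32, adjusted p = 0.345). With counts not thinned, edgeR called 7 members, Gbp3, Gbp5 and Gbp7 higher and Igtp lower besides these 3, where 43.2% of genes were called. In CD4 cells, over the 6 libraries with at least 20 such cells, edgeR called 2 members higher, with 4.67% of genes called higher and 11.5% in either direction. They were Gbp3, at 1.57 (SE 0.41, adjusted p = 0.00204; 25 UMIs in those 6 libraries), and Iigp1, at 0.68 (SE 0.243, adjusted p = 0.0475; 54 UMIs). Neither was called without vehicle day 4 (1.30, adjusted p = 0.057, and 0.55, 0.209) or without PPCA day 4 (1.47, 0.0721, and 0.71, 0.0976). Iigp1 was also lost without vehicle day 2 (0.52, edgeR adjusted p = 0.279) or PPCA day 2 (0.63, 0.129), in DESeq2 (adjusted p = 0.192), in limma-voom (0.415) and with no low-count filter (0.172), and was called in 5 of 12 fits. The members limma-voom called were Gbp3 (adjusted p = 0.0047) and Gbp5 (1.12, 0.027). With counts not thinned, edgeR called 5 members in CD4 cells, where 23.5% of genes were called.

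The difference between gates was tested with a class-by-gate term in edgeR, which called 2 members and 2.74% of genes. Iigp1 was at -3.16 (SE 0.409, adjusted p = 2.61e-09) and was called in all 11 fits run. Irf1 was at -0.61 (SE 0.176, adjusted p = 0.0328), with plain log2 ratios of 0.10 in CD4 and -0.21 in CD8 cells. It was not called without onset (adjusted p = 0.0581), vehicle day 4 (0.15) or PPCA day 4 (-0.32, 0.641), nor in DESeq2 (0.127), limma-voom (0.121) or with no low-count filter (0.0574), and was called in 5 of 11 fits. Of the signalling genes, Ifngr2 (-2.41, edgeR adjusted p = 0.0342) and Socs3 (-1.07, 0.000561) had the same sign. The T cell subsets behind the classes may differ, and their part in the result was not tested.

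**Figure D5:**
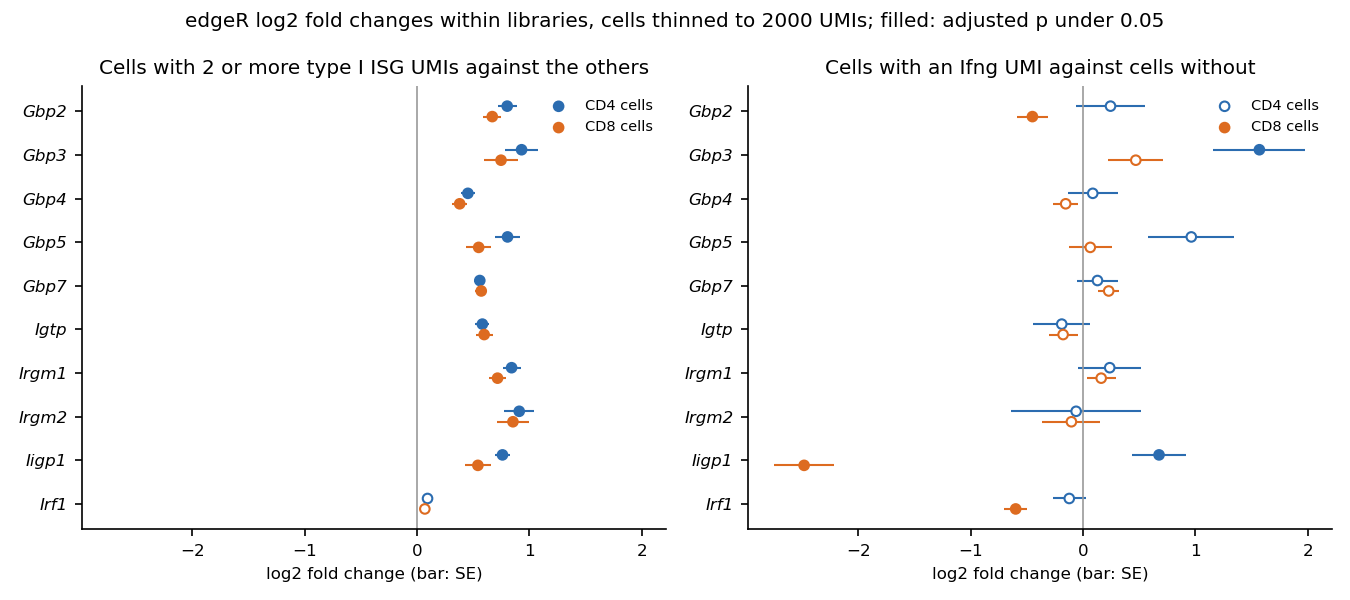
Log2 fold changes from edgeR with their SE (x axis) for each member in CD4 (blue) and CD8 (orange) cells, for cells with 2 or more type I ISG UMIs against the others (left) and for cells with an Ifng UMI against those without (right), with filled points for an adjusted p under 0.05. On the left the 9 GTPases lie between 0.38 and 0.93 and Irf1 near 0, and on the right Iigp1 lies at 0.68 in CD4 and -2.48 in CD8 cells.

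The active and onset libraries, 1 each, have no replicate check and no test. In T cells 9 of 10 members were higher in active, where 46.7% of genes at 10 CPM or more were. That level is the mean over the 8 libraries, so Gbp3, at 9.38 and 7.51 CPM here, counts in T cells. In CD4 cells 8 of 9 members at that level were higher, as were 3675 of 7265 genes. In CD8 cells 7 of 10 were, as were 2899 of 7206 genes. Irgm2 stood at 20.7 CPM against 10.3, the only member at least 2-fold apart (0.441% of genes were at least 2-fold higher). Iigp1 stood at 50.2 against 32.5 CPM, Irgm1 at 53.4 against 35.7, and Irf1 at 114 against 136. Ifng was also lower in active, at 7.90 against 38.1 CPM. Over genes at that mean level, the median log2 ratio of the members was 0.43 in T (10 genes), 0.58 in CD4 (9) and 0.25 in CD8 cells (10). That of the type I ISGs was 1.11, 1.24 and 1.19 over the 12, 12 and 13 of 20 genes that reached this level. The other GTPases, 6 of 10 at this level, had medians of 0.03, 0.07 and -0.07, and the other interferon gamma targets, 7 of 13, had 0.02, 0.03 and -0.08. The erythroid genes were at 64.0 CPM in active and 0.31 CPM in onset, and their part in the result was not tested.

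Over the 16 profiles of 8 libraries and 2 gates, which share libraries, the genes whose log2 level was most like that of the summed members were Gbp6 (Pearson r = 0.95), Lgals3bp (0.948), Nop2 (0.947) and Phf11c (0.935). Rnf213 (0.924), Prmt3 (0.91), Trmt13 (0.906) and Tlr1 (0.905) followed, out of 7250 genes compared. Among the members, Igtp and Irgm2 were most alike (r = 0.962), followed by Gbp7 and Irgm1 (0.937). Irf1 ran against Iigp1 (r = -0.895), Igtp (-0.852) and Irgm2 (-0.786). These coefficients are descriptions over profiles that share depth and library.

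The authors' deposited table of cluster markers lists 8 of the 10 members among 82 genes for the cluster named CD4 Th1, with log2 fold changes from 0.30 for Irgm2 to 0.84 for Igtp. For that cluster the authors' deposited table also lists type I ISGs, led by Ifi27l2a at 2.07, Isg15 at 1.28 and Ifit1 at 1.12. Ifng is listed there for CD4 Th17 (0.83) and CD8 TRM TEM (2.41). The authors' deposited table lists 5 members among 567 genes for CD4 Treg (Iigp1 0.72, Gbp7 0.68, Gbp3 0.49, Igtp 0.44 and Gbp5 0.44), Gbp3 at 0.27 among 428 for CD4 Th17 and Gbp7 at 0.30 among 702 for CD8 TRM TEM. It lists 0 members among 54 genes for CD4 Naive, 179 for CD4 Th0 and 88 for CD8 TCM, and holds only genes at a log2 fold change of 0.25 or more. The authors' deposited table names no libraries, so these values carry no error here.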

How the data were processed

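The deposited matrices hold counts of UMIs per gene and barcode, not normalised, written by Cell Ranger 6.0.0 per the file headers. The submitters' processing notes name Cell Ranger 6.1.2 and Seurat. Not given in the sources used here were the genome build and gene models behind the counts, and how the marker table was made. The authors' deposited marker table gives log2 fold changes, p-values and the fraction of cells with a gene.

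Cells needed 500 genes and under 10% mitochondrial UMIs. Cells with the highest doublet scores (the share of simulated doublets among neighbours), 0.8% per 1000 barcodes, were removed, and T cells needed at most 1 UMI over 6 B and myeloid genes. Counts were summed per library and gate, and tested with edgeR 4.0.16 in R 4.3.3 (filterByExpr, TMM, quasi-likelihood, Benjamini-Hochberg over all genes, threshold 0.05). CPM used the UMIs of the cells summed. Class comparisons needed 20 cells a side. Alternatives used DESeq2 1.42.0, limma-voom (limma 3.58.1) and other filters, gates and left-out libraries. The fits in single gates and in low-ISG cells, the class-by-gate terms and the left-out libraries of the day contrasts were added after seeing the data. On simulated data the day 4 against day 2 test recovered 69.5% of 197 genes changed 2-fold, and the gate test 100% of 197. Simulated counts had a single dispersion per comparison and no other differences in gene levels between libraries. These shares need not hold for the real libraries.

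The day block pairs vehicle and PPCA libraries by the day in the labels. The deviations of same-day libraries correlated across genes at 0.372, 0.431 and 0.535 in T cells for days 2, 3 and 4. The members and lists were chosen with earlier results of these data known. All members were named, with up to 5 called genes a list and Ifng, Ifngr1, Ifngr2, Socs1 and Ifi47 in any case, not all of which are printed. One further gene is not reported here. The 8 genes most like the members, by Pearson r, were named too. Of 12 listed other GTPases, Gbp11 and Gm12250 are not analysed here.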

Additional observations from a re-analysis of the deposited data

Results flagged for a closer look

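By the test of the difference, Iigp1 and, less firmly, Irf1 differed between gates in how cells with an Ifng UMI compared with cells without one. The class-by-gate term of edgeR was -3.159 on the log2 scale for Iigp1 (SE 0.409, adjusted p = 2.61e-09) and -0.607 for Irf1 (SE 0.176, adjusted p = 0.0328). The Iigp1 call held in 11 of 11 fits and the Irf1 call in 5 of 11, being lost in DESeq2, in limma-voom, with no low-count filter and without onset, vehicle day 4 or PPCA day 4. Iigp1 was higher in Ifng-positive CD4 cells in 5 of the 6 libraries with at least 20 such cells and in Ifng-positive CD8 cells in 0 of 8. Irf1 was higher in Ifng-positive CD4 cells in 4 of these 6 libraries and in Ifng-positive CD8 cells in 3 of 8.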

How the results depend on the processing

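For members called in the comparisons as reported, 663 values under alternatives kept direction and call and 49 lost the call, with 0 reversed. For members not called there, 24 of 1068 values under alternatives were called and 94 had the other sign. PPCA against vehicle called 0 members with no replicate block (day left out of the fit) in T, CD4 and CD8 cells, the same as with it. With Y-linked status as a factor it called 1 member in T, 1 in CD4 and 1 in CD8 cells, and in CD8 cells 1 with no low-count filter and 0 to 1 without each day. Without single libraries, day 4 against day 2 called 4 to 9 members and day 4 against day 3 called 0 to 9, and the latter called 4 in CD4 cells under 2 type I ISG UMIs. Ifng-positive CD4 cells had 1 member called with DESeq2, 1 with no low-count filter, 5 with counts not thinned (23.5% of genes called) and 0 to 2 without single libraries. Ifng-positive CD8 cells had 7 with counts not thinned, where 43.2% of genes were called. Its difference between gates called 1 with DESeq2, 1 with limma-voom, 1 with no low-count filter and 1 to 2 without single libraries. The cause was not tested in these cases, beyond fewer samples where a library was left out. Where no share of all genes stands beside a count here, the count only describes how calls depended on the fit. A bound of 2 Ifng UMIs was not run in CD4 cells, since only 2 libraries then held 20 cells a side. Depth limits Irgm2 and Gbp3 most, with 157 and 337 UMIs in the T cells of their lowest libraries.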

Other observations

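GTPase UMIs were spread unevenly over cells. In cells thinned to 2000 UMIs, the tenth of cells with most GTPase UMIs held 42.7% to 57.4% of them in CD4 cells and 38.1% to 53.4% in CD8 cells over the 8 libraries. The mean was 0.404 to 1.03 GTPase UMIs per CD4 cell and 0.398 to 1.14 per CD8 cell. That share depends on the mean, so the libraries were not compared in it.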
